A study of Mus musculus with 20 samples.

Results

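Transcription factors that steer T cells toward effector fates were followed in sorted donor T cells after allogeneic bone marrow transplantation. They were chosen by gene symbol, as Tbx21, Eomes, Prdm1, Zeb2, Id2, Rora, Maf, Ahr and Stat4, and all 9 were found among the 17101 genes of the deposited table. RNA came from splenic donor T cells on day 10 after transplantation, in 20 libraries forming 5 groups of 4. Donors were of the B6 strain, either DNMT3a KO (CD4-Cre with both alleles 2loxP) or WT, and were 6 to 12 weeks old, while recipients were B6D2F1 mice of 8 to 12 weeks. KO cells were sorted as CD4+, CD8+ and CD4+CD8+ double-positive (DP) cells, and WT cells as CD4+ and CD8+ cells, with WT DP cells not analysed here. Every group came from a transplanted spleen with donor and recipient mismatched, so no untransplanted or syngeneic group is among them. The Cre is driven by the Cd4 promoter, which is active in thymocytes that go on to either lineage, so the deletion covers CD4+ and CD8+ donor T cells alike. KO libraries are numbered 1 to 4 and WT libraries 2, 3, 5 and 6. The labels do not say what a number stands for, so P values measure the spread between these libraries, which may in part be technical.

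DNMT3A is the enzyme that places new methyl groups on cytosine in CG pairs, a mark laid down while activated T cells settle into effector or memory fates. T-bet (encoded by Tbx21) and Eomesodermin (Eomes) are related T-box factors that drive interferon-gamma and killing genes, and STAT4 carries the interleukin-12 signal that raises T-bet. Blimp-1 (Prdm1), ZEB2 and ID2 are repressors or inhibitors that push cells toward terminal effector differentiation. ROR-alpha (Rora), c-MAF (Maf) and the aryl hydrocarbon receptor (Ahr) are best known from helper cells of the interleukin-17, interleukin-10 and follicular types.

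Levels of the factors were compared with each other per kilobase of RefSeq exon, since longer transcripts collect more reads. On this scale Id2 was the most abundant of the 9 in every group, with a mean of 13049 normalized counts per kilobase in CD4+ and 13785 in CD8+ cells of WT donors. Tbx21 and Stat4 followed, at 3215 and 3367 in WT CD4+ cells and 4182 and 3030.1 in WT CD8+ cells. Maf stood beside them at 3139 in WT CD4+ cells but at 377 in WT CD8+ cells, whereas Eomes stood at 221 and 1076. Zeb2 and Ahr were the least abundant, at 60.6 and 157 normalized counts per kilobase in WT CD4+ cells and at 62.3 and 52.3 in WT CD8+ cells. Across the 5 groups the highest group mean exceeded the lowest by 10.1-fold for Eomes, 8.33-fold for Maf, 3.92-fold for Ahr and 2.06-fold for Zeb2. For the other 5 factors this ratio lay between 1.22 for Stat4 and 1.55 for Tbx21. When the groups were ordered by mean, 4 of 36 pairs of neighbouring groups had libraries that did not overlap, as did 8.38% of such pairs over all genes with a mean of at least 10. These were Eomes in WT CD8+ above KO CD8+, Maf in KO CD4+ above KO DP and in KO CD8+ above WT CD8+, and Ahr in WT CD4+ above KO DP cells.

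**Figure D1:**
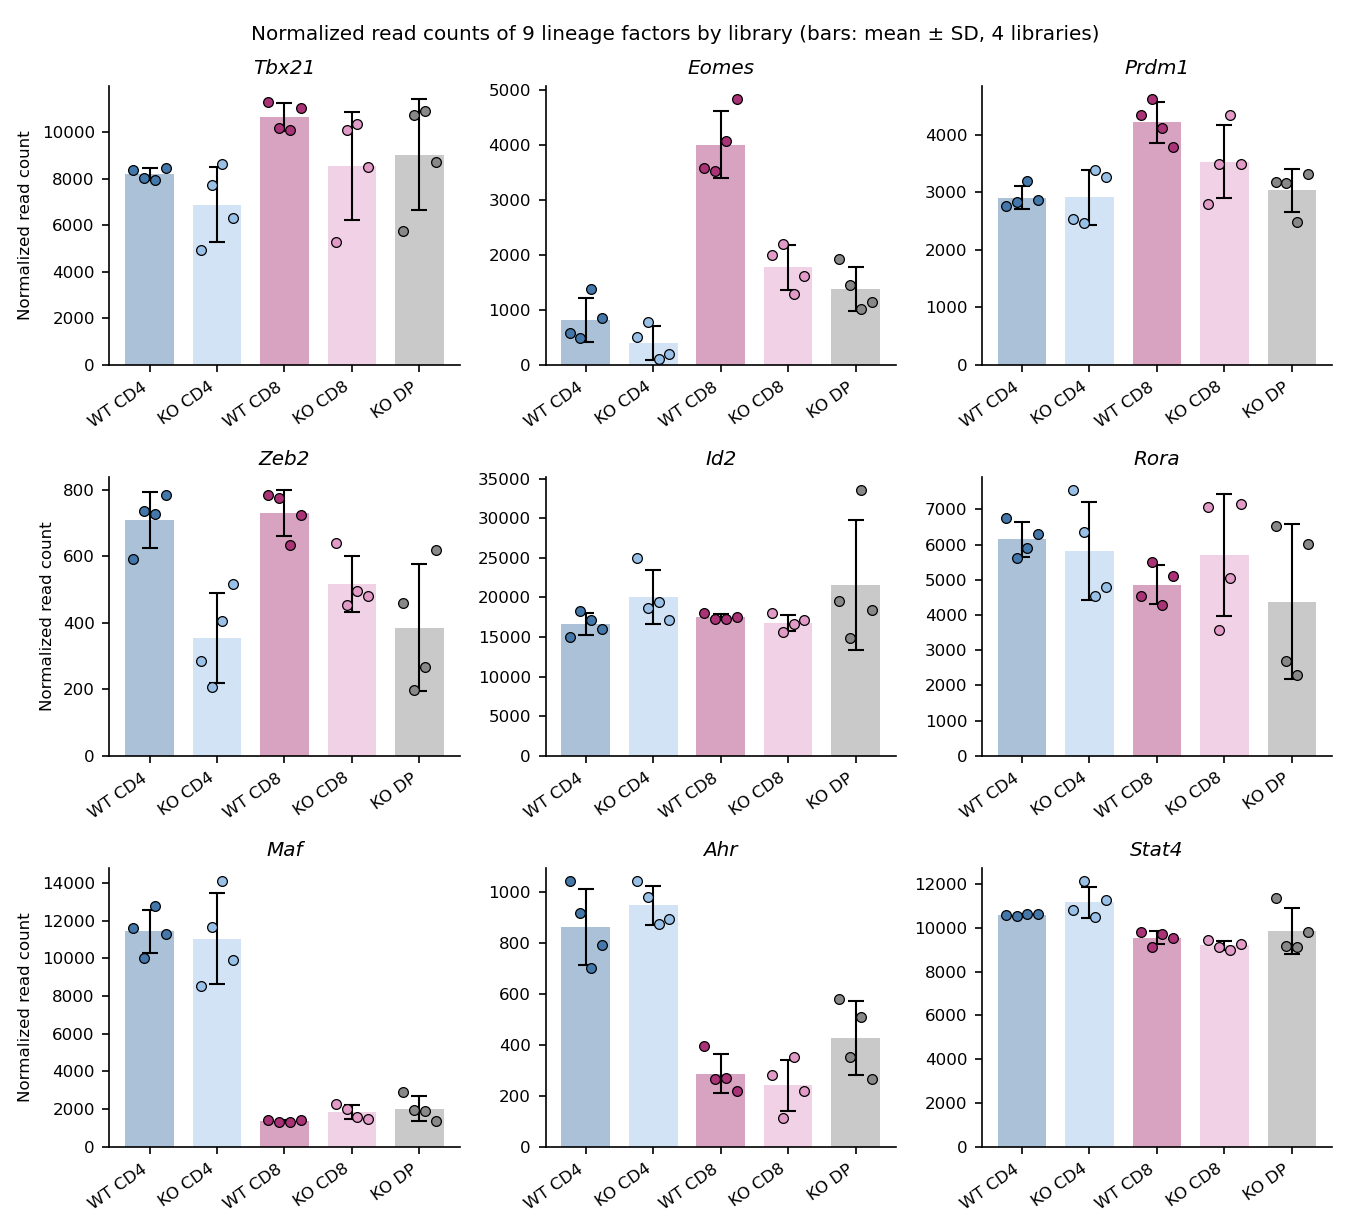
Normalized read counts (vertical axis, linear from 0) of the 9 factors in WT CD4, KO CD4, WT CD8, KO CD8 and KO DP libraries. Bars are means, error bars are SD over 4 libraries and points are single libraries. Eomes fell from a mean of 3995 in WT CD8 to 1769 in KO CD8 libraries, and Maf and Ahr were high in CD4 libraries of both genotypes.

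Depth was even, at 37547651 to 46966318 reads on genes per library. Between 13203 and 14677 genes were detected in 19 libraries and 11783 in KO DP library 3. The deleted gene, Dnmt3a, had 4689.98 to 5171 normalized counts in CD4+ and 3542 to 3812 in CD8+ libraries of WT donors, against 1385 to 1658 in KO CD4+, 1287 to 2007 in KO CD8+ and 650.4 to 1571 in KO DP libraries. Summed T cell markers lay between 229128 and 447582 in every library. Coreceptor reads followed the sort, except that Cd8a and Cd8b1 reached 3771 and 4515 in KO CD4+ library 1 and at most 586 and 788 in the other 7 CD4+ libraries. Libraries of KO groups also varied more. Among abundant genes the log2 values of a gene had a median SD of 0.0892 (WT CD4+) and 0.0668 (WT CD8+), and of 0.169, 0.178 and 0.291 in the CD4+, CD8+ and DP groups of KO cells. Of the 9 factors, 8 had the larger SD in KO in each of CD4+ and CD8+ cells.

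The first question was how each factor differed between KO and WT cells within a subset. The paper reports more severe graft-versus-host disease in recipients of KO cells, so genotype and the state of the recipient cannot be told apart here. In CD8+ cells Eomes and Zeb2 fell in KO cells, and in CD4+ cells Zeb2 fell. Eomes is shown first, with Tbx21 as its relative, and the bases upstream of their RefSeq starts and of that of Zeb2 are printed because CG pairs are what DNMT3A acts on. Each line holds the 250 bases before the first listed start in GRCm38.p6, read 5′ to 3′ on the strand of the gene, with CG pairs in capitals.
Eomes (chr9:118477939-118478188, plus strand): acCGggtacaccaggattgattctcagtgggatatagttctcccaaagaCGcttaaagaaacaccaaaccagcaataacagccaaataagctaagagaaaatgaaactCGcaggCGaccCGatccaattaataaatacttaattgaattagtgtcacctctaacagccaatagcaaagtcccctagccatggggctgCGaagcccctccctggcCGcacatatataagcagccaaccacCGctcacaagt
Tbx21 (chr11:97115332-97115581, minus strand): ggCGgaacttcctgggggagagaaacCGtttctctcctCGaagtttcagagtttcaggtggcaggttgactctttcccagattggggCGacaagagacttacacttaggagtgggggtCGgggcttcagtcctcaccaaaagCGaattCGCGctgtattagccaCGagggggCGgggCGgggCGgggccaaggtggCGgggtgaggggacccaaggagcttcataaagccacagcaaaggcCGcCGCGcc
Zeb2 (chr2:45117443-45117692, minus strand): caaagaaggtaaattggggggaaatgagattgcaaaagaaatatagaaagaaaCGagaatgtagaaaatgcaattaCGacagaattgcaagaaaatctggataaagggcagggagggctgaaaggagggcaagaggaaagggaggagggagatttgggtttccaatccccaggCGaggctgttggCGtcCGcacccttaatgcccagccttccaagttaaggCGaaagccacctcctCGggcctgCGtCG
The Eomes stretch holds 8 CG pairs, that of Tbx21 16 and that of Zeb2 9, where the median over 32807 RefSeq promoters was 6 and the quartiles were 2 and 16. RefSeq starts were found for 7 of the 9 factors, with 11 starts in all, and Maf and Ahr had no entry. The other stretches held 15 CG pairs for Prdm1, 18 for Id2, 26 for Rora, 1 and 3 for the 2 starts of Stat4, and 6, 6 and 14 for the other 3 starts of Zeb2. Short motifs were searched on both strands. The T-box motif GGTGTGA was in 0 of the 11 stretches and 3.33% of all, the aryl hydrocarbon receptor core GCGTG in 4 and 28.1%, and the ZEB motif CAGGTG, which shares the letters GGTG with the first, in 3 and 17.2%. The Zeb2 stretches with GCGTG, chr2:45113280-45113529 and chr2:45113254-45113503, overlap and share the same site, which was counted in each. Methylation was not measured in these RNA libraries. The paper did measure it, by whole-genome bisulfite sequencing of the same sorted subsets on day 10, and those data were not used here.

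Eomes lies at chr9:118478186-118486132 (GRCm38.p6, as for the positions that follow). In WT CD8+ cells it was counted at 3567, 3519, 4073 and 4824 in libraries 2, 3, 5 and 6, and in KO CD8+ cells at 2001, 2193, 1279.7 and 1603 in libraries 1 to 4. All KO libraries lay below all WT libraries. The means were 3995 ± 606 (SD, n = 4) in WT and 1769 ± 408 (SD, n = 4) in KO cells. The log2 difference was -1.19 (SE 0.17, 95% interval -1.58 to -0.81), a level 2.29-fold lower in KO cells, with an adjusted P of 0.00248 in limma and an exact permutation P of 0.0286, the smallest that 4 against 4 libraries allow. The call was made in each of 8 fits that left out 1 library. In CD4+ cells Eomes stood at 577, 479, 1374 and 847 in WT and at 499, 785, 98.4 and 194 in KO libraries. Here KO libraries 1 and 2 lay within the WT range and libraries 3 and 4 below it. The log2 difference of -1.35 (SE 0.58, 95% interval -2.63 to -0.07) had an adjusted P of 0.121, and it passed the threshold only without KO CD4+ library 2 (-1.82, adjusted P of 0.0305). KO CD4+ library 1, with the Cd8a and Cd8b1 reads given above, had the second highest Eomes count of its group. The highest was in KO CD4+ library 2, which held 115 normalized counts of Cd8a. WT CD4+ library 5, with 586 normalized counts of Cd8a, had the highest Eomes count of all CD4+ libraries. WT CD4+ library 6, second among WT CD4+ libraries at 847, held 102 of Cd8a. The part of CD8+ cells in these counts was not tested.

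Tbx21 (chr11:97098007-97115331) overlapped between genotypes in both subsets. WT CD4+ libraries held 8373, 8026, 7937 and 8486 normalized counts and KO CD4+ libraries 4919, 7717, 8625 and 6310.2. WT CD8+ libraries held 11323, 10199, 10110.5 and 11059 and KO CD8+ libraries 5272, 10110.5, 10342 and 8512. KO libraries 2 and 3 reached the WT level or came near it in both subsets, whereas library 1 was the lowest in both. The log2 differences were -0.28 (95% interval -0.61 to 0.04, adjusted P of 0.190) in CD4+ and -0.37 (95% interval -0.79 to 0.06, adjusted P of 0.180) in CD8+ cells.

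Zeb2 (chr2:44983512-45117442), a zinc finger repressor of terminal effector cells, was the factor that fell in both subsets. WT CD4+ libraries were at 591, 737, 726 and 784 normalized counts and KO CD4+ libraries at 286, 206, 406 and 516, with no overlap. The log2 difference was -1.08 (SE 0.25, 95% interval -1.64 to -0.52), a level 2.11-fold lower, with an adjusted P of 0.0194. The call was lost without WT CD4+ library 3, 5 or 6, where adjusted P values were 0.0553, 0.0547 and 0.0674 and the difference stayed at -1.06, -1.07 and -1.03. In CD8+ cells Zeb2 stood at 784, 775, 634 and 726 in WT and at 641, 454, 495 and 480.2 in KO libraries. KO library 1 lay just above WT library 5, and the other 3 KO libraries lay below all WT libraries. The log2 difference was -0.50 (SE 0.14, 95% interval -0.81 to -0.19), with an adjusted P of 0.0275 and an exact permutation P of 0.0571. This call was lost without KO CD8+ library 2 or 4 (adjusted P of 0.0558 and 0.0597) and without WT CD8+ library 2, 3 or 6 (0.0836, 0.0841 and 0.0743), with quantile normalization (-0.38, 0.0766) and in a joint fit of all 20 libraries (-0.50, 0.256). The joint fit also ended the call of Eomes in CD8+ cells (-1.19, 0.0828).

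Markers of other cells moved with genotype beside these results. The counts called below stand beside 18.4% of all genes called in CD4+ and 25.2% in CD8+ cells. ZEB2 is also made by macrophages and dendritic cells, and EOMES by natural killer (NK) cells. Of 10 macrophage and monocyte markers 3 fell in KO CD4+ cells and 0 were called in CD8+ cells. Their summed level in CD4+ cells was 1439 to 2015 in KO against 2223 to 3143 in WT libraries. In CD8+ cells it was 2634 to 6633 in KO and 3143 to 4707 in WT libraries. Of 5 dendritic cell markers 4 fell in each subset, with sums of 824 to 2269.5 in KO and 1371 to 1681 in WT CD4+ libraries and of 4705 to 11819 in KO and 6816 to 10135 in WT CD8+ libraries. Itgax, the marker not called, made up most of the CD8+ sums, with means of 7461 in WT and 7257 in KO cells. The markers that fell were Xcr1 (-0.97 in CD4+ and -1.61 in CD8+ cells), Zbtb46 (-2.60 and -1.34), Clec9a (-3.75 and -4.24) and Flt3 (-4.91 and -3.93). Of 4 NK markers tested, Fcer1g (1.82) and Klrb1c (1.85) rose in KO CD4+ cells while Tyrobp and Klre1 had differences of -0.99 and -0.29 that were not called, and their sums were 790.4 to 2111 in KO against 355 to 555 in WT libraries. In CD8+ cells Fcer1g (1.64) and Klrb1c (2.73) rose and Klre1 (-1.58) fell, with sums of 2393 to 3836 against 767 to 1244. Ncr1, a defining NK receptor, was at 3 normalized counts or fewer in every CD4+ library. Of 12 stress and immediate early genes 9 fell in each subset, with sums of 23143.5 to 36404.5 in KO and 47881 to 83852 in WT CD4+ libraries and of 18876 to 26208 in KO and 35567 to 55186 in WT CD8+ libraries. All 12 log2 differences were below 0 in both subsets. The largest were those of Hspa1a (-7.26 in CD4+ and -7.42 in CD8+ cells), Hspa1b (-7.08 and -7.05) and Fosb (-4.30 and -4.12). Neutrophil markers summed to 5.89 to 4259 in KO CD4+ and 12.4 to 2745 in KO CD8+ libraries, with the highest sums in the libraries numbered 3. The WT sums were 2307 to 3549 (CD4+) and 1840.4 to 4410.3 (CD8+). Of 6 B and plasma cell markers 2 rose, Cd79a (3.47) and Cd79b (3.72), and 2 fell, Cd74 (-1.74) and Jchain (-3.47), in KO CD4+ cells, with sums of 2737 to 4018 against 6142 to 8079 in WT libraries. In CD8+ cells Cd79b alone was called (3.21), and the sums were 2708 to 4812 in KO and 3197 to 4875 in WT libraries. Erythroid sums were at most 724 in any library. The part of these cells and genes in the differences of Zeb2 and Eomes was not tested. In bulk samples fewer cells of a kind and less RNA per cell cannot be told apart.

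The remaining factors did not pass the threshold between genotypes. Prdm1 (chr10:44437174-44528558) stood at 2753, 2826, 3197 and 2859.8 in WT CD4+ and at 2543, 2462, 3381 and 3270.4 in KO CD4+ libraries, a log2 difference of -0.01 (95% interval -0.27 to 0.25). In CD8+ cells it stood at 4348, 4619, 4118 and 3785 in WT and at 2791, 3499.9, 4343 and 3488 in KO libraries. KO CD8+ library 3 lay within the WT range and the other 3 below it. The CD8+ difference was -0.27 (95% interval -0.55 to 0.01, adjusted P of 0.141), and it passed the threshold without that library (-0.38, adjusted P of 0.0245). Id2 (chr12:25093799-25096092), which blocks E proteins, ranged from 15012 to 18258 in WT CD4+ and from 17142 to 24998 in KO CD4+ libraries, with a difference of 0.26 (95% interval 0.00 to 0.52, adjusted P of 0.132). In CD8+ cells it ranged from 17238 to 18034 in WT and from 15567 to 17961 in KO libraries (-0.06, 95% interval -0.20 to 0.08). Stat4 (chr1:51987106-52107189) was the steadiest, at 10548 to 10656 in WT CD4+ libraries and 10483 to 12129.5 in KO CD4+ libraries, and its intervals allow differences of -0.08 to 0.22 in CD4+ and -0.18 to 0.07 in CD8+ cells.

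Maf, a factor of interleukin-10 and follicular helper programs, lies at chr8:115703253-115706894. In CD8+ cells it was counted at 1397, 1338, 1313 and 1446 in WT and at 2275, 2027, 1586 and 1458 in KO libraries. All KO libraries lay above all WT libraries, although KO library 4 did so narrowly. The log2 difference of 0.40 (95% interval 0.09 to 0.71) had an adjusted P of 0.0612 in limma, 0.0454 in edgeR and 0.0212 in DESeq2, and 0.0492 after quantile normalization. Without KO CD8+ library 3 or 4 it passed the threshold in limma as well (0.46, adjusted P of 0.0378, and 0.50, adjusted P of 0.0290). In CD4+ cells Maf was at 10036 to 12784 in WT and 8513 to 14096 in KO libraries, a difference of -0.07 (95% interval -0.39 to 0.24). Ahr (chr12:35497979-35534989) differed by 0.15 (95% interval -0.15 to 0.45) in CD4+ and by -0.33 (95% interval -1.09 to 0.43) in CD8+ cells. Rora (chr9:68653404-69388246) differed by -0.11 (95% interval -0.44 to 0.22) and 0.19 (95% interval -0.28 to 0.65). The intervals of Ahr and Rora in CD8+ cells are wide, and neither shows that the genotypes were alike.

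Counted together, 1 of the 9 factors was called between genotypes in CD4+ cells, where 18.4% of 12391 tested genes were, and 2 of 9 in CD8+ cells, where 25.2% of 12383 were. The share of all genes called was 8.59% higher and 9.77% lower in KO CD4+ cells and 12.6% higher and 12.5% lower in KO CD8+ cells. Libraries of the 2 genotypes did not overlap for 1 factor in CD4+ cells (25.6% of genes) and 2 in CD8+ cells (30.6%). Neither share of factors called was above that of genes in general. Their median log2 difference was -0.07 in CD4+ and -0.27 in CD8+ cells, beside -0.05 and -0.04 over all genes.

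**Figure D2:**
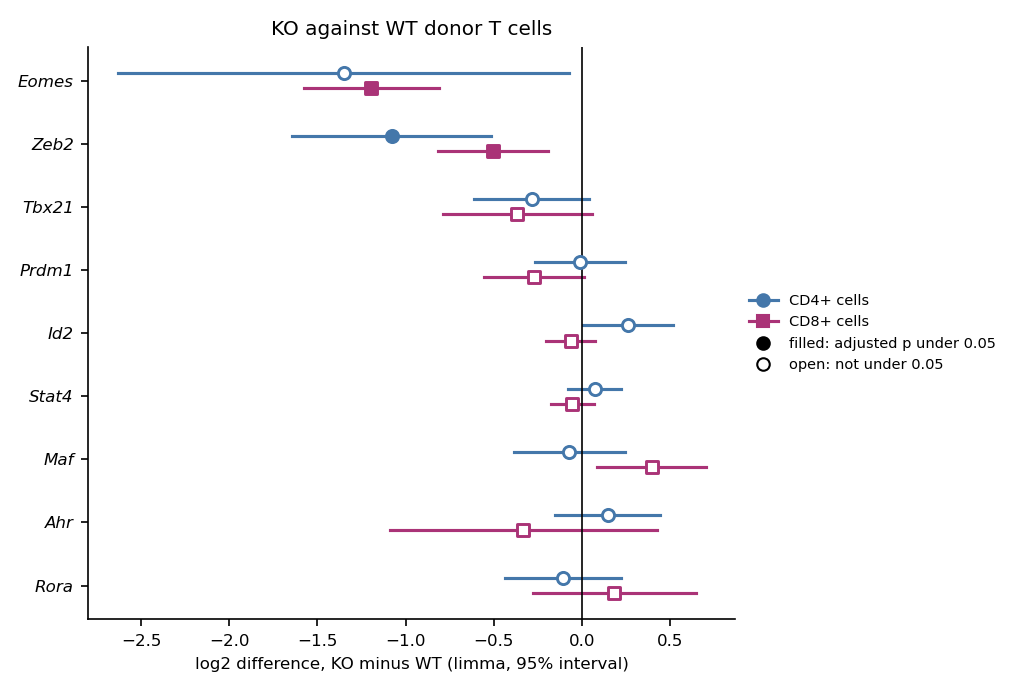
Log2 difference, KO minus WT, of each factor in CD4+ (circles) and CD8+ (squares) cells, with 95% intervals from limma on the horizontal axis and filled symbols where the adjusted P was under 0.05. Eomes in CD8+ cells and Zeb2 in both subsets are filled, at -1.19, -1.08 and -0.50, and the interval of Eomes in CD4+ cells runs from -2.63 to -0.07.

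Whether a genotype difference itself differed between subsets was tested as an interaction over 16 libraries. No factor was called by limma, edgeR or DESeq2, and 2 had an unadjusted P under 0.05 in limma. Over all genes 0.0161% were called. For Zeb2 the CD8+ difference exceeded the CD4+ difference by 0.58 (95% interval -0.08 to 1.23, adjusted P of 0.894), since its fall was the smaller in CD8+ cells. For Eomes the difference was 0.16 (95% interval -1.28 to 1.60, adjusted P of 1.00). The 2 with the lower unadjusted P values were Id2 (-0.33, 95% interval -0.61 to -0.04, adjusted P of 0.710) and Maf (0.47, 95% interval 0.02 to 0.91, adjusted P of 0.747). These tests do not show that the fall of Zeb2 or Eomes differed between subsets.

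The second question was how the factors divide CD4+ from CD8+ cells, and whether KO cells keep that division. In WT cells Maf, Ahr, Rora and Stat4 were higher in CD4+ cells and Eomes, Prdm1 and Tbx21 in CD8+ cells, so 7 of 9 were called, where 44.5% of genes were. For the same 7 the libraries did not overlap, as was the case for 41.8% of genes. Maf led, with 11592, 10036, 12784 and 11321 normalized counts in CD4+ against 1397, 1338, 1313 and 1446 in CD8+ libraries. Every CD4+ library held far more than any CD8+ library, and the log2 difference was 3.05 (SE 0.07, adjusted P of 5.18e-12). Ahr stood at 1041, 916, 702 and 789 in CD4+ and at 396, 266, 268 and 219 in CD8+ libraries, a difference of 1.60 (SE 0.17, adjusted P of 5.40e-06). Eomes was the opposite case, at -2.39 (SE 0.24, adjusted P of 3.87e-06), and was 5.25-fold lower in CD4+ cells. The other 4 differences were smaller, at -0.53 for Prdm1 (adjusted P of 2.59e-05), -0.38 for Tbx21 (3.41e-05), 0.34 for Rora (0.00281) and 0.15 for Stat4 (0.00710). Rora stood at 6741, 5624, 5909 and 6305 in CD4+ and at 4530.1, 5504, 4281 and 5099 in CD8+ libraries, so the groups were separated by a narrow gap. In the joint fit of all libraries Tbx21, Rora and Stat4 were no longer called (adjusted P of 0.288, 0.515 and 0.197). Zeb2 and Id2 differed by -0.04 (95% interval -0.27 to 0.18) and -0.08 (95% interval -0.20 to 0.04).

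In KO cells 3 of 9 factors were called between CD4+ and CD8+ cells, where 4.22% of genes were, and 4 did not overlap, where 10.1% of genes did not. Maf held 8513, 11653, 14096 and 9891 in CD4+ and 2275, 2027, 1586 and 1458 in CD8+ libraries, a difference of 2.58 (SE 0.18, adjusted P of 0.000160). Ahr held 1040.1, 979, 874 and 893 in CD4+ and 283, 113, 349.9 and 219 in CD8+ libraries, a difference of 2.08 (SE 0.31, adjusted P of 0.00715). For both genes the lowest CD4+ library was well above the highest CD8+ library. Eomes was lower in CD4+ cells by -2.55 (SE 0.55, adjusted P of 0.0334), 5.87-fold. That call was lost without KO CD4+ library 3 (-2.03, adjusted P of 0.0506) or 4 (-2.35, 0.102), without KO CD8+ library 1, 2, 3 or 4 (0.0708, 0.0917, 0.0516 and 0.0722), without the KO libraries numbered 3 in both subsets (-2.17, 0.0794), in edgeR (-2.17, 0.0635) and without the trend in limma (0.0882). Stat4, at 10822, 12129.5, 10483 and 11269.6 in CD4+ and 9429, 9107, 8985 and 9272 in CD8+ libraries, also did not overlap, but its difference of 0.28 had an adjusted P of 0.0852.

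Libraries of equal number deviated together within a genotype, so the pairing was also entered as a block. With the replicate block 6 of 9 factors were called in KO cells, where 18.9% of genes were. Stat4 (0.28, adjusted P of 0.0104), Tbx21 (-0.30, 0.0156) and Prdm1 (-0.27, 0.0473) were added to Maf, Ahr and Eomes. For Eomes the adjusted limma P with the block was 0.000465. The same 6 factors had the same direction in WT cells. Tbx21 was higher in CD8+ than in CD4+ cells in all 4 KO pairs, from 4919 to 5272 in number 1 and from 8625 to 10342 in number 3. Rora, which was called in WT cells, had a KO difference of 0.05 (95% interval -0.48 to 0.59, adjusted P of 0.881 with the block), and KO CD8+ libraries ranged from 3574 to 7157.

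**Figure D3:**
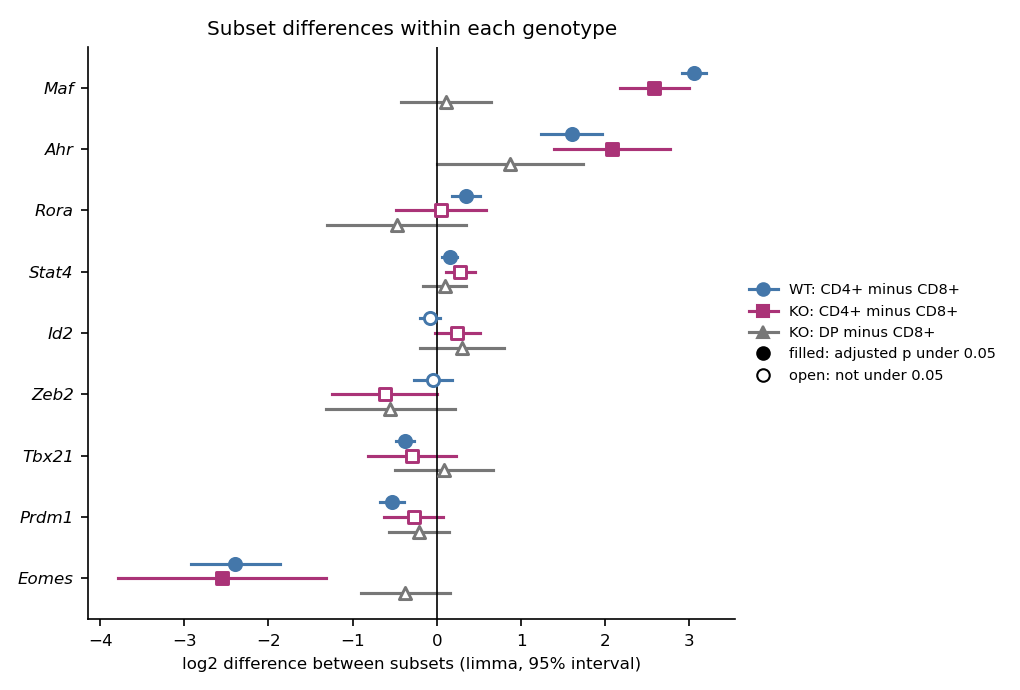
Log2 difference between subsets for each factor, as CD4+ minus CD8+ in WT (circles) and KO (squares) cells and as DP minus CD8+ in KO cells (triangles), with 95% intervals from limma without a block. Filled symbols had an adjusted P under 0.05. Maf and Ahr lie to the right and Eomes to the left in both genotypes, and no DP symbol is filled.

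KO DP cells carried Cd4 reads of 8758 to 15351 normalized counts, between the 302 to 458 of KO CD8+ and the 44804 to 74386 of KO CD4+ libraries. Of the 9 factors 0 were called between DP and CD8+ cells by limma, edgeR or DESeq2, and 1 had an unadjusted P under 0.05, where 0.00823% of genes were called. No factor separated these libraries without overlap, as 2.7% of genes did. That factor was Ahr, at 580.5, 351, 509 and 264 in DP against 283, 113, 349.9 and 219 in CD8+ libraries (0.87, 95% interval 0.00 to 1.73, adjusted P of 0.871). Read by number, Ahr, Tbx21 and Stat4 were higher in DP than in CD8+ cells in all 4 pairs, and Eomes and Rora were lower in all 4. Eomes stood at 2001, 2193, 1279.7 and 1603 in CD8+ and at 1913, 1448, 1012 and 1136 in DP libraries, and Rora at 7074, 3574, 5036 and 7157 and at 6529.8, 2693, 2291 and 6009.7. With the replicate block the intervals were 0.28 to 1.45 for Ahr, -0.65 to -0.10 for Eomes and -0.88 to -0.08 for Rora, with unadjusted limma P values of 0.0101, 0.0159 and 0.0263. No factor was called with the block either (adjusted P of 0.405 for each of these 3), where 0.00823% of genes were. The other blocked intervals bound how far DP and CD8+ cells may differ. They were -0.17 to 0.38 for Maf, -0.10 to 0.27 for Tbx21 and -0.11 to 0.30 for Stat4. Those of Prdm1 (-0.59 to 0.17), Id2 (-0.14 to 0.73) and Zeb2 (-1.17 to 0.07) were wider and allow larger differences.

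Against KO CD4+ cells, 2 of 9 factors were called in DP cells, Maf and Ahr, where 1.95% of genes were, and 3 did not overlap, where 11.2% of genes did not. Maf stood at 2924, 1932, 1885 and 1348 in DP libraries and was lower than in CD4+ cells by a log2 difference of -2.48 (SE 0.23, adjusted P of 0.00111). Ahr was lower by -1.21 (SE 0.25, adjusted P of 0.0403). Its call was lost without KO CD4+ library 1, 2, 3 or 4 (adjusted P of 0.123, 0.104, 0.114 and 0.113), without KO DP library 2 or 4 (0.116 and 0.0618), without the KO libraries numbered 3 (-1.36, 0.0935), after quantile normalization (-1.18, 0.0513), in edgeR (-1.15, 0.0515) and without the trend (0.0818). Eomes, at 1913, 1448, 1012 and 1136 in DP libraries, was above every KO CD4+ library, with a difference of 2.18 (SE 0.56, adjusted P of 0.0863). With the replicate block Eomes was called as well (adjusted P of 0.0178), beside Ahr (0.0187) and Maf (0.00293). So 3 factors were called, where the block called 7.06% of genes. Eomes also passed in DESeq2 (1.81, adjusted P of 0.0128), in the joint fit (2.18, 0.00427) and without KO CD4+ library 2 (2.65, 0.0437). Both comparisons use the same DP libraries.

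Differences among the KO libraries were as large as many group differences, and for some factors they followed the number. Tbx21 had library 1 lowest and library 3 highest in all 3 KO subsets, with DP counts of 5771, 10746, 10906 and 8709.6. The same number was lowest in all 3 subsets for 4 of 9 factors, which were Tbx21 (number 1), Eomes and Stat4 (number 3) and Zeb2 (number 2). Eomes ranged from 98.4 to 785 in KO CD4+ libraries, an SD of 1.34 on the log2 scale. Zeb2 in DP cells was 459, 197, 267 and 619, an SD of 0.74. Rora in DP cells was 6529.8, 2693, 2291 and 6009.7, with numbers 1 and 4 high and numbers 2 and 3 low. Id2 stood at 33515 in DP library 3, the library with the fewest genes detected, and at 19558, 14845 and 18447 in the others. After group means were removed, Tbx21 and Rora had a Pearson r of -0.73 over 12 KO libraries and 0.17 over 8 WT libraries. These KO libraries come in 4 numbers of 3, so the points are not independent.

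**Figure D4:**
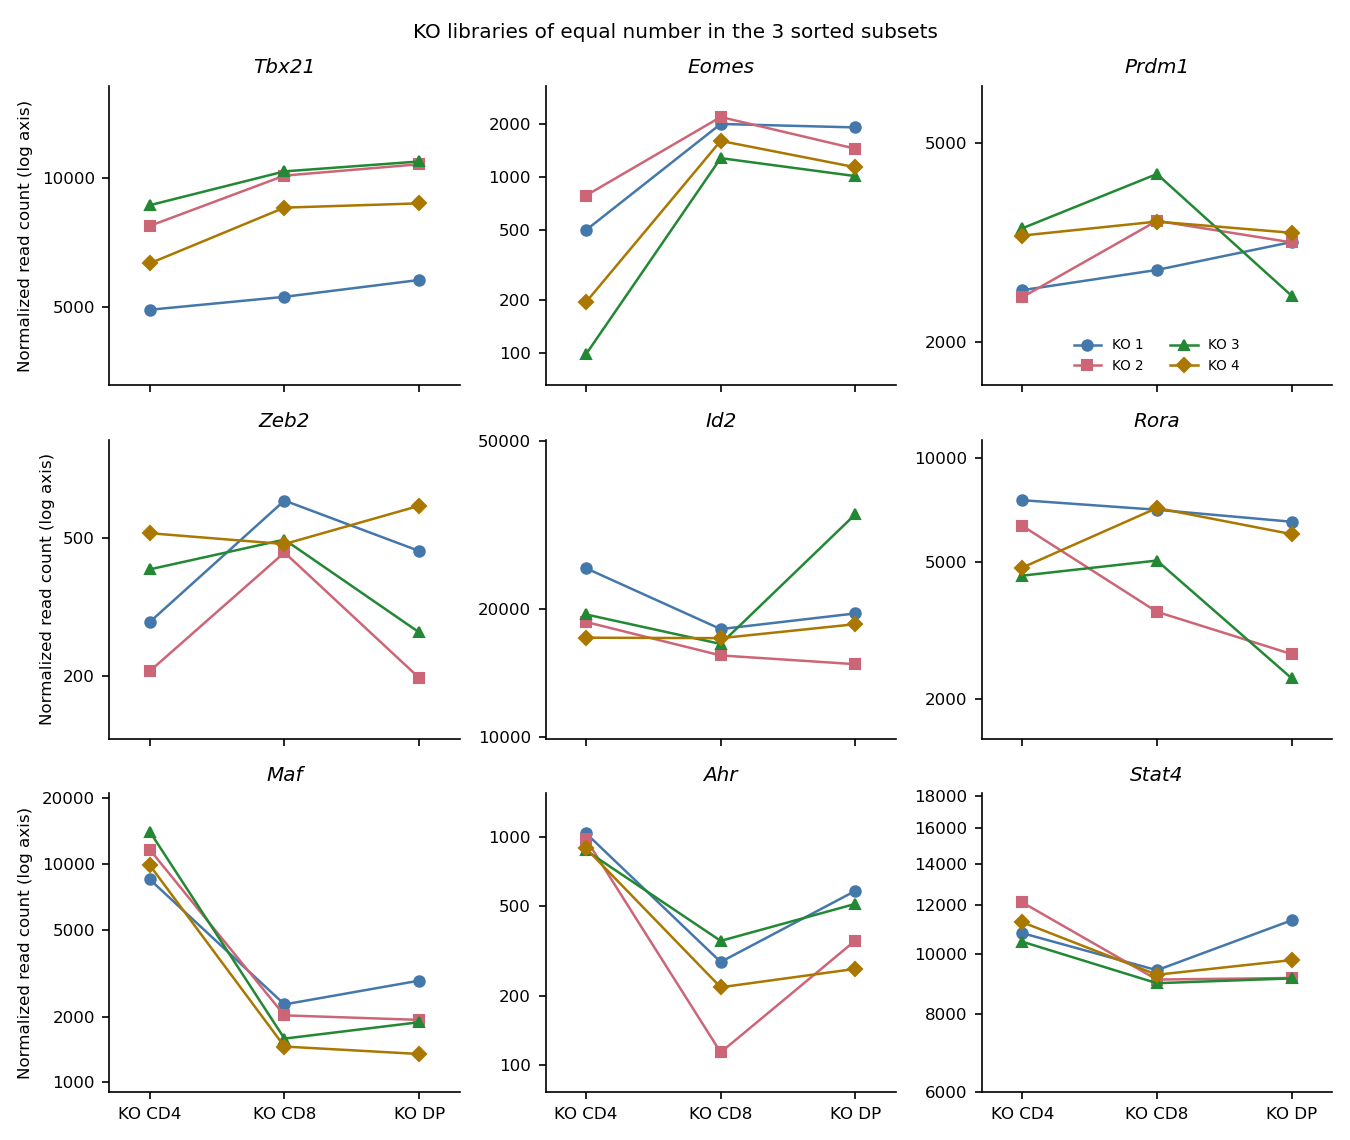
Normalized read counts (log axis) of each factor in KO CD4, KO CD8 and KO DP libraries, with lines joining libraries of equal number. Lines for Tbx21 run nearly parallel with number 1 lowest, from 4919 to 5771, and lines for Maf fall from KO CD4 to KO CD8 in every number.

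Genes downstream of or beside the factors were read from lists of related genes, written with earlier results of these data known. Of 19 type 1 effector genes tested, 5 rose and 1 fell in KO CD4+ cells and 2 rose and 5 fell in KO CD8+ cells, with median log2 differences of -0.03 and -0.12, beside -0.05 and -0.04 over all genes. In CD4+ cells Gzma (a log2 difference of 2.80, SE 0.61, adjusted P of 0.0152), Gzmb (1.32), Prf1 (0.96) and Ly6c2 (0.63) rose, encoding granzymes, perforin and a surface marker of activated cells, and Ifng (-0.95) fell. In CD8+ cells Gzma rose (1.93) while Ccl3 (-2.08), Ccl4 (-1.79), Ifng (-1.79, SE 0.26, adjusted P of 0.00256) and Tnf (-1.24) fell. The chemokine Ccl5 had a difference of 0.04 there (adjusted P of 0.933). The shares called were 31.6% and 36.8%, beside 18.4% and 25.2% of all genes. These killing genes are also made by NK cells and were higher in CD8+ than in CD4+ WT cells. In the same KO CD4+ libraries the summed NK markers were 790.4 to 2111 against 355 to 555 in WT. Of these markers Fcer1g and Klrb1c rose, Tyrobp (-0.99) and Klre1 (-0.29) were not called, and Ncr1 was at 0 in CD4+ libraries. KO CD4+ library 1 held the Cd8a and Cd8b1 counts given above. The part of NK or CD8+ cells in these differences was not tested, and without KO library 1 there were 7 calls. The 6 calls in CD4+ cells became 2 without WT library 5 and 1 without WT library 6. The 7 in CD8+ cells became 3 without KO library 2, 2 without WT library 2, and 1 without WT library 3, 5 or 6.

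Of 12 interleukin-12 and STAT4 pathway genes, 1 rose and 1 fell in KO CD4+ and 3 rose and 1 fell in KO CD8+ cells. Their medians were -0.08 and 0.15, and the shares called 16.7% and 33.3%, beside 18.4% and 25.2% of all genes. Tyk2, a kinase of the interleukin-12 receptor, fell in both (-0.61 and -0.55), and Furin, a protease gene induced through STAT4, rose in both (0.54 and 0.52). Jak2 (0.48) and Il12rb2 (0.40) rose in CD8+ cells. The 2 calls in CD4+ cells became 1 without KO library 1 or 2 or WT library 2, 3 or 5 and 0 without WT library 6, and the 4 in CD8+ cells became 7 without KO library 3 and 2 without WT library 3, 5 or 6.

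Of 12 type 17 genes tested, 2 rose and 2 fell in KO CD4+ cells and 2 rose and 1 fell in KO CD8+ cells. Their medians were -0.22 and -0.34, and the shares called 33.3% and 25%, beside 18.4% and 25.2% of all genes. The risers were the neighbouring Tmem176a (1.37 and 2.35) and Tmem176b (1.57 and 2.55), which encode membrane channels also expressed by dendritic cells. Both are named in the paper as higher in KO T cells of these same data. The shares called in this list are therefore not independent of earlier results. Ccr6, a chemokine receptor of interleukin-17 producing cells, fell in both (-1.25 and -2.47), and Il21 fell in CD4+ cells (-1.35). The 4 calls in CD4+ cells became 1 without KO library 1 or WT library 2, 3 or 5 and 0 without WT library 6, and the 3 in CD8+ cells became 6 without KO library 3. Ccr6 and Il21 are also among the Maf target genes. Of these targets 2 of 10 rose and 3 fell in KO CD4+ and 1 of 9 rose and 2 fell in KO CD8+ cells. Medians were -0.57 and -0.39, and the shares called 50% and 33.3%, beside 18.4% and 25.2% of all genes. Itgb7, a gut-homing integrin chain, rose in both (0.54 and 0.65), Tigit rose in CD4+ cells (0.55), Il4 fell in CD4+ cells (-2.90) and Pdcd1 fell in CD8+ cells (-0.77). Il4 was low, with mean normalized counts of 8.14 in KO and 45.5 in WT CD4+ cells. Without KO CD4+ library 1 or WT CD4+ library 3, 5 or 6 the 5 calls became 0, and without WT CD4+ library 2 they became 1. The 3 in CD8+ cells became 5 without KO library 3 and 1 without any single WT library.

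Of 5 tested Ahr target genes, Cd69, a retention marker of activated T cells, rose in KO CD4+ cells (0.83). That call was lost without KO library 1 or 4 and without any single WT library. In KO CD8+ cells 0 of the 5 were called by limma or edgeR and 1 by DESeq2, 1 had an unadjusted P under 0.05, and 1 was called without KO library 3. The medians were 0.12 and 0.25, and the shares called by limma 20% and 0%, beside 18.4% and 25.2% of all genes.

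Among factors that oppose effector differentiation the calls were mostly upward in KO cells. In CD4+ cells 4 of 12 rose and in CD8+ cells 4 of 12 rose and 1 fell. The shares called were 33.3% and 41.7%, beside 18.4% and 25.2% of all genes. Called or not, 7 of the 12 differences were above 0 and 5 below in each subset, with medians of 0.03 and 0.18. Those below included Bcl6 (-0.54 and -1.09) and Myb (-0.44 and -0.41), neither of them called. Lef1 (0.80, adjusted P of 0.00654, and 1.16, adjusted P of 0.0057), Satb1 (0.85 and 0.92) and Tcf12 (0.42 and 0.62), a Wnt-linked factor of naive cells, a chromatin organizer and an E protein held in check by ID2, rose in both subsets. Klf2 (0.90), a factor of recirculating cells, rose in CD4+ cells, Foxo1 (0.46) in CD8+ cells, and Id3, the relative of Id2 kept by memory precursors, fell in CD8+ cells (-1.44). The 4 calls in CD4+ cells became 3 to 6 with 1 library left out. The 5 calls in CD8+ cells became 3 without WT library 5 and 2 without WT library 6. Of 21 other lineage factors tested, 3 fell in KO CD4+ cells, among them Bhlhe40 (-0.41) and Gata3 (-0.28), and 2 rose and 4 fell in KO CD8+ cells, among them Tox (-0.96), Bhlhe40 (-0.39), Stat5a (0.27) and Stat5b (0.25). Their medians were -0.28 and -0.30, and the shares called 14.3% and 28.6%, beside 18.4% and 25.2% of all genes. The 3 calls in CD4+ cells became 0 without KO library 1 or WT library 2, 5 or 6 and 1 without KO library 4 or WT library 3. The 6 in CD8+ cells became 11 without KO library 3 and 2 without any single WT library.

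The same lists divided the WT subsets as well. Of the 19 type 1 genes 13 were lower and 2 higher in CD4+ than in CD8+ WT cells (median -1.30), led by Prf1 (-3.87), Gzma (-3.68) and Gzmb (-2.75). Of 12 type 17 genes 9 were higher in CD4+ cells, led by Il6ra (4.16) and Il1r1 (3.83). Of 10 Maf target genes 5 were higher and 2 lower, with Il4 (5.07) and Cxcr5 (3.75) the highest and Lag3 (-1.52) lower. Il4 was near the floor, with mean normalized counts of 45.5 in WT CD4+ and 0.449 in WT CD8+ cells. Of 12 STAT4 pathway genes 7 were higher, led by Il12rb2 (1.67). Of 12 opposing factors 8 were higher and 1 lower, led by Tcf7 (2.38) and Id3 (2.09). The shares called were 78.9% (type 1), 75% (type 17 and opposing factors), 70% (Maf targets) and 58.3% (STAT4 pathway), beside 44.5% of all genes.

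Genes with the pattern most like each factor were found by Pearson r over the 20 libraries on the log2 scale, among genes with a mean of at least 50. For Maf these were Sepp1 (0.97), Slfn5 (0.96) and Cxcr5 (0.96), and for Ahr Ica1l (0.93), Tmem154 (0.91) and Hbegf (0.90). Within groups these correlations were lower, at 0.38 to 0.48 for Maf and 0.51 to 0.70 for Ahr after group means were removed. For Tbx21 they included Ssrp1 (0.97) and Fignl1 (0.96), and here r was still 0.95 and 0.96 after group means were removed. Eomes was closest to Brd9, Nsmaf and Lmtk3 (0.91 each), Zeb2 to Rab32 (0.88), Fbf1 (0.87) and Naip2 (0.86), and Prdm1 to Mxi1 (0.91), Lyst (0.88) and Ptch1 (0.88). Id2 was closest to Txnl4a (0.90), Ndufaf1 (0.88) and Ccdc53 (0.87), Rora to Kat6b, Chd2 and Phc1 (0.90 each), and Stat4 to Tnfrsf25 (0.85), Trib2 (0.84) and Zc3h12a (0.83). The points share groups, numbers and libraries, so these values describe likeness over these 20 libraries.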

How the data were processed

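Poly(A)-selected, strand-specific RNA libraries from sorted splenic donor T cells were aligned by the authors with STAR (2.7.2b in the submitters' processing notes) to mm10, counted on UCSC genes with strand taken into account, and normalized with DESeq2. The deposited table holds this normalized signal for 17101 genes in 20 libraries, and each library had been divided by its size factor. Multiplying by that factor returned whole reads for 100% of the values, within 0.001. Groups were taken from the genotype, subset and number in the labels. The members and lists were chosen with earlier results of these data known.

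Comparisons used limma 3.58.1 in R 4.3.3 (eBayes with trend) after adding 1 and taking log2. Genes averaging at least 10 over the compared libraries were tested, 2-sided, with Benjamini-Hochberg adjustment over all of them and a threshold of 0.05. Fold changes are on this scale and understate those of low genes. Single values also have 2-sided exact permutation tests. All 9 factors are named, at most 5 called genes per list with the largest log2 difference, and the 3 genes most similar to each factor, apart from items that are not reported here. The settings varied were the pseudocount (10), the filter (none, or a mean of 50), the scaling (quantile, or a common 75th percentile), the trend, and the samples (all 20 in 1 fit, or each library left out). edgeR 4.0.16 and DESeq2 1.42.0 were run on whole reads, and the number was added as a block. Leaving out the KO libraries numbered 3 was added after the data were seen. The calculations were tested on simulated data. Marker lists were read as counts of genes called and as summed normalized counts.

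Whether equal numbers pair libraries was checked on deviations from group means over genes. Equal numbers in KO correlated at 0.412 to 0.498 (CD4+ with CD8+), 0.271 to 0.457 (CD4+ with DP) and 0.338 to 0.538 (CD8+ with DP), and in WT at 0.120 to 0.196, while unequal numbers gave -0.395 to 0.116. Equal numbers were therefore taken as pairs within a genotype. No 2 libraries of a group were duplicates (the lowest chi-square divided by its degrees of freedom was 11.1). Positions, exon lengths and promoters are from RefSeq for GRCm38.p6.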

Additional observations from a re-analysis of the deposited data

How the results depend on the processing

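In fits that used all libraries of a comparison, or left out the KO libraries numbered 3, 628 member differences kept their direction and side of the threshold, 11 gained a call, 16 lost one and 11 reversed. With 1 library left out these counts were 527, 5, 20 and 24. The number of members called was 0 for KO against WT CD8+ cells and 4 for CD4+ against CD8+ WT cells in the joint fit. For DP against CD4+ cells 1 member was called with quantile normalization, without the trend, in edgeR and without the KO libraries numbered 3. With the replicate block 6 members were called between KO subsets (514 genes became 2305). KO and WT share only numbers 2 and 3, which do not pair them (r of -0.0024 to 0.0990). With that block 0 members were called in CD4+ and 0 in CD8+ cells, and 26 and 89 genes (4 of 8 libraries enter per subset). The block changed no other member's call beyond those given beside the results. Among reversed differences, Prdm1 in CD4+ cells, KO against WT, was 0.014 in edgeR, 0.016 in DESeq2 and 0.049 with the block, where Maf was 0.25, Ahr -0.078 and, in CD8+ cells, Rora -0.24. Id2 in DP against CD4+ cells was -0.032 with quantile normalization and -0.19 without the KO libraries numbered 3. The Eomes interaction was -0.13 in edgeR, -0.12 in DESeq2 and -0.22 without those libraries. With each library left out in turn, 0 to 2 members were called in CD4+ and 1 to 4 in CD8+ cells between genotypes and 1 to 2 in DP against CD4+ cells. The differences ranged, between genotypes in CD4+ cells, from -0.086 to 0.066 for Prdm1 and -0.20 to 0.046 for Maf. Between subsets they ranged from -0.11 to 0.042 for Zeb2 in WT and -0.16 to 0.18 for Rora in KO cells. For DP against CD8+ cells the ranges were -0.13 to 0.28 for Tbx21 and -0.088 to 0.28 for Maf, and for DP against CD4+ cells -0.012 to 0.16 for Prdm1, -0.21 to 0.34 for Zeb2 and -0.18 to 0.21 for Id2. The interaction ranged from -0.23 to 0.13 for Tbx21 and from -0.37 to 0.63 for Eomes. With a minimum mean of 200, 7 members kept their 3 most similar genes, Zeb2 kept 2 and Ahr 1. The cause of these changes was not tested.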
